A study of Mus musculus with 10 samples.

Results

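The presynaptic and synaptic vesicle genes are 46 genes whose proteins store, release and retrieve neurotransmitter at nerve terminals. They were taken from a fixed list of gene names, matched to Ensembl gene IDs and kept where the deposited value was at least 1 in at least 2 of 10 libraries. The list was chosen with earlier results of these data known, so it is not independent of them. All 46 listed genes met this minimum, as did 15712 of the 45195 gene IDs in the whole table. They were split by role into synapsins (3), vesicle membrane proteins (6), vesicular glutamate transporters (2), synaptotagmins and other calcium sensors (7), SNARE proteins (4), SNARE regulators and recycling factors (5), Rab3 proteins with an effector (4), active zone scaffold and priming proteins (7), endocytosis proteins (7) and 1 synuclein.

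RNA came from neurites of cortical neurons from E16.5 mouse embryos, grown on membranes with 3 µm pores, with the cell bodies wiped off the upper side before lysis on day 8. The 4 groups were injured and naive neurites of wild-type C57BL/6 neurons (3 libraries each) and injured and naive neurites of Cpeb1 flox/flox neurons on the C57BL/6 background (2 libraries each), here called wild type and knockout after the labels. In the injured cultures neurites had been cut off with a swab from the underside on day 7, and the neurites present 24 hours later were lysed. Injured and naive neurites may thus also differ in the time they had grown, which cannot be told apart from injury. All neurons, wild type included, received an AAV2 virus at plating that expresses Cre from the CAG promoter, which is not restricted to neurons. Cpeb1 is an RNA-binding protein that regulates mRNAs through a short motif in their 3' untranslated region, the cytoplasmic polyadenylation element. Whether replicates were separate cultures is not said in the labels, and p-values therefore rest on a spread between libraries that may be technical.

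At a presynaptic terminal, vesicles filled with transmitter are tethered by synapsins, brought to the active zone by Rab3 proteins and its scaffold, primed by Unc13 and RIM proteins, and fused when SNARE proteins zipper and synaptotagmin binds calcium. NSF and its SNAP adaptors then take the SNARE complexes apart, and clathrin adaptors, amphiphysins, endophilin, synaptojanin and dynamin retrieve the membrane. In cultured cortical neurons these proteins are carried into growing axons before synapses form, and some of their mRNAs are known from axons.

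The values are taken as FPKM, fragments per length and sequenced fragment, multiplied by a factor per library. Between 12231 and 13143 genes had a value of at least 1 in a library, and the sequencing depth is not given with the values. Wild-type injured replicate 3 stood apart, correlating least with the rest (mean r across genes of 0.839). Genes picked by name as ribosomal RNA held 19.9%, 23.3% and 28.2% of the total in wild-type injured replicates 1 to 3. They held 11.1% to 16.4% in wild-type naive, 12.1% and 15.1% in knockout injured and 16.9% and 12.6% in knockout naive libraries. The part of this difference in the fold changes was not tested. Cpeb1, the targeted gene, was listed at 1.14 and 3.15 in injured and 5.97 and 0.356 in naive knockout libraries, and at 1.65, 13.8 and 22.6 in injured and 7.16, 5.96 and 5.86 in naive wild-type libraries. Knockout naive replicate 1 thus lay within the wild-type naive range and wild-type injured replicate 1 between the injured knockout libraries. Which exons are deleted is not given in the sources used here, and a value over the whole gene can count exons that remain. The 18 pan-neuronal genes outside the synapse were detected in every library. Their means over all libraries ran from 4.30 (Thy1) to 1045 (Stmn2), and they summed to 4204 to 5571 in wild-type injured, 6043 to 6804 in wild-type naive, 5654 to 6622 in knockout injured and 6779 to 7528 in knockout naive libraries. Of 10 microglial markers 3 were at 0 in every library (Cx3cr1, Tmem119 and Trem2), and the highest value of the others was 11.3 (C1qb). Of 11 endothelial and mesenchymal markers Cdh5 and Lum were at 0 in every library, and the highest value of the others was 57.05 (Acta2).

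By their mean over all libraries, 33 of 46 members lay above the median level of all tested genes. In naive wild-type neurites Rab3a, the main Rab3 GTPase of brain synapses, was the highest at 340.1 ± 48.2 (SD, n = 3). It was followed by the vesicle SNARE Vamp2 at 252 ± 26.9 and the plasma membrane SNARE Snap25 at 193 ± 17.04 (SD, n = 3 each), whose values overlapped those of the synaptogyrin Syngr3 at 181 ± 27.3. The calcium sensor Syt1 averaged 62.7 ± 4.997, less than Syt11 at 157 ± 21.6, Syt5 at 139 ± 15.9 and Syt4 at 123 ± 5.05 (SD, n = 3 each), with no overlap between the libraries of Syt1 and those of the other 3. The active zone proteins were low, the highest being Erc2 at 19.5 ± 4.14 and Rims1 at 18.04 ± 8.32, and the giant scaffold proteins Bsn and Pclo averaged 4.89 ± 1.04 and 5.39 ± 0.285 (SD, n = 3 each). Both vesicular glutamate transporters were near the lower end, Slc17a6 at 4.95 ± 2.64 and Slc17a7 at 3.24 ± 1.47 (SD, n = 3 each), and their libraries overlapped. At the threshold of the rule stood Syt2, which reached 1 in only 2 of the 10 libraries, Rimbp2 in 3, Doc2b in 4 and Sv2c in 6, while 36 members reached it in all 10.

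**Figure D1:**
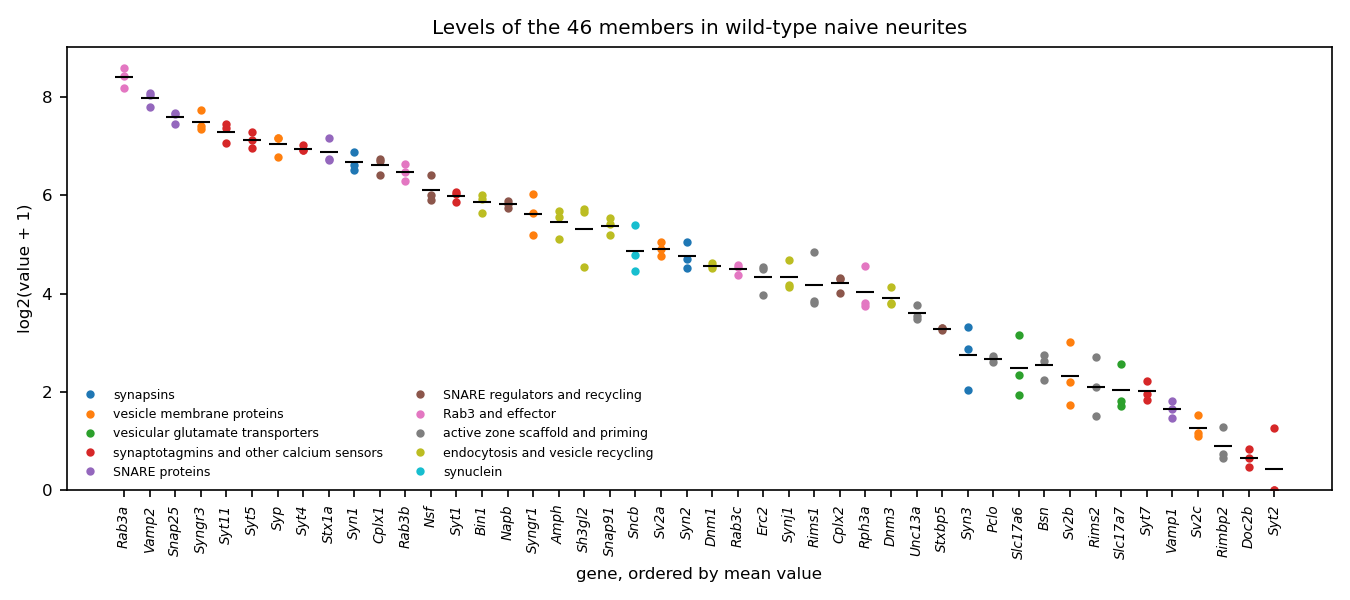
Level of each member in the 3 wild-type naive libraries as log2(value + 1), ordered by mean value and coloured by role, with a bar at the mean of the log2 levels. Rab3a, Vamp2, Snap25 and Syngr3 stand at the left, and Sv2c, Rimbp2, Doc2b and Syt2 at the right end.

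After injury most presynaptic genes stood lower, in both genotypes. In wild-type neurites 37 of 46 members had a log2 fold change of injured over naive below 0, as had 49.0% of all tested genes, and their median was -0.48, against 0.01 for all genes. In knockout neurites it was again 37 of 46, against 56.1% of all genes, with a median of -0.26 against -0.09 for all genes. The size depends on the scaling: with every library set to the same total the medians were -0.72 in wild type and -0.02 in knockout, beside -0.21 and 0.10 for all genes. A single member passed the test in wild type, Napb, which fell, and none passed in knockout. The share called lower was 1 of 46 in wild type, beside 0.248% of all tested genes, and 0 of 46 in knockout, beside 0.0318% (limma, adjusted p below 0.05). At an unadjusted p below 0.05, 16 members were lower and 0 higher in wild type, which is 34.8% of the members beside 6.24% of all genes lower and 7.66% higher. In knockout 5 were lower and 0 higher, 10.9% beside 4.05% of all genes lower and 1.68% higher. The values are relative to the RNA of each library, and in such bulk samples fewer cells or neurites of a type and less RNA per cell cannot be told apart.

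The 46 members summed to 1792 to 2046 in the wild-type injured libraries and to 2544 to 2692 in the wild-type naive libraries. They summed to 1970 to 2306 in the knockout injured libraries and to 2507 to 2653 in the knockout naive libraries, and in neither genotype did the sums of injured and naive libraries overlap. The same held for the sums of the 18 pan-neuronal genes given above. The 5 highest members, Rab3a, Vamp2, Snap25, Syngr3 and Syt11, made up 41.2% to 50.6% of the member sum in each library. The values of all injured libraries lay below those of all naive libraries for 18 members in wild type, a share of 39.1% beside 8.02% of all genes, and above them for 0 members, beside 9.78% of all genes. In knockout, with 2 libraries a group, 22 members lay below (47.8%, beside 22.1% of all genes) and 3 above, namely Sv2b, Syt4 and Vamp1 (6.52%, beside 13.5%). The wild-type and knockout injury comparisons share no library. In 32 members both fold changes were below 0, a combination found in 29.9% of all tested genes, and in 4 (Sv2c, Syt2, Syt4 and Vamp1) both were above 0.

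Among the marker lists, the sums of injured and naive libraries lay apart in both genotypes for the inhibitory interneuron and pan-neuronal genes. Those of the astrocyte markers and nuclear-retained RNAs lay apart in wild type and overlapped in knockout. Those of the oligodendrocyte lineage markers overlapped in wild type. In knockout they lay apart, at 260 and 262 in injured and 234 and 128 in naive libraries. The 16 inhibitory interneuron markers summed to 88.0 to 121 in wild-type injured and 548 to 809 in wild-type naive libraries, and to 94.7 to 169 in knockout injured and 577 to 999 in knockout naive libraries. Of these markers 15 had fold changes below 0 in wild type and 14 in knockout, with medians of -1.74 and -1.52. In wild type 5 were called lower, beside 0.248% of all genes, and in knockout 1, beside 0.0318%. The 14 astrocyte markers summed to 2291 to 4827 in wild-type injured and 1422 to 1885 in wild-type naive libraries, and to 2010 to 2356 in knockout injured and 1891 to 2326 in knockout naive libraries. Of these 13 had fold changes above 0 in wild type, beside 50.6% of all genes, and 9 in knockout, beside 42.0%. In wild type 2 were called higher, beside 0.700% of all genes, and in knockout 0, beside 0.0255%. The 10 nuclear-retained RNAs summed to 6594 to 7928 in wild-type injured, 2798 to 4233 in wild-type naive, 1893 to 3266 in knockout injured and 2370 to 3256 in knockout naive libraries. In each genotype 7 of the 10 had fold changes below 0, with medians of -0.17 in wild type and -0.36 in knockout. The summed level is mostly Malat1, at 5988 ± 579 in wild-type injured and 2633 ± 792 in wild-type naive libraries (SD, n = 3 each), and at 1830.2 ± 840.3 in knockout injured and 2189.6 ± 555 in knockout naive libraries (SD, n = 2 each). Malat1 and Rn7sk were the 2 called higher in wild type, and 0 were called in knockout. The 9 tested of 11 radial glia and progenitor markers had medians of 0.63 in wild type and 0.50 in knockout, and the 8 tested of 10 oligodendrocyte lineage markers 0.09 and 0.06. Microglial markers summed to at most 18.7 and vascular and mesenchymal markers to at most 73.5 in any library. For the 12 projection neuron markers the median fold change was -0.29 in both genotypes, and for the 18 pan-neuronal genes it was -0.26 in wild type and -0.19 in knockout. The part of these in the lower presynaptic levels was not tested.

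**Figure D2:**
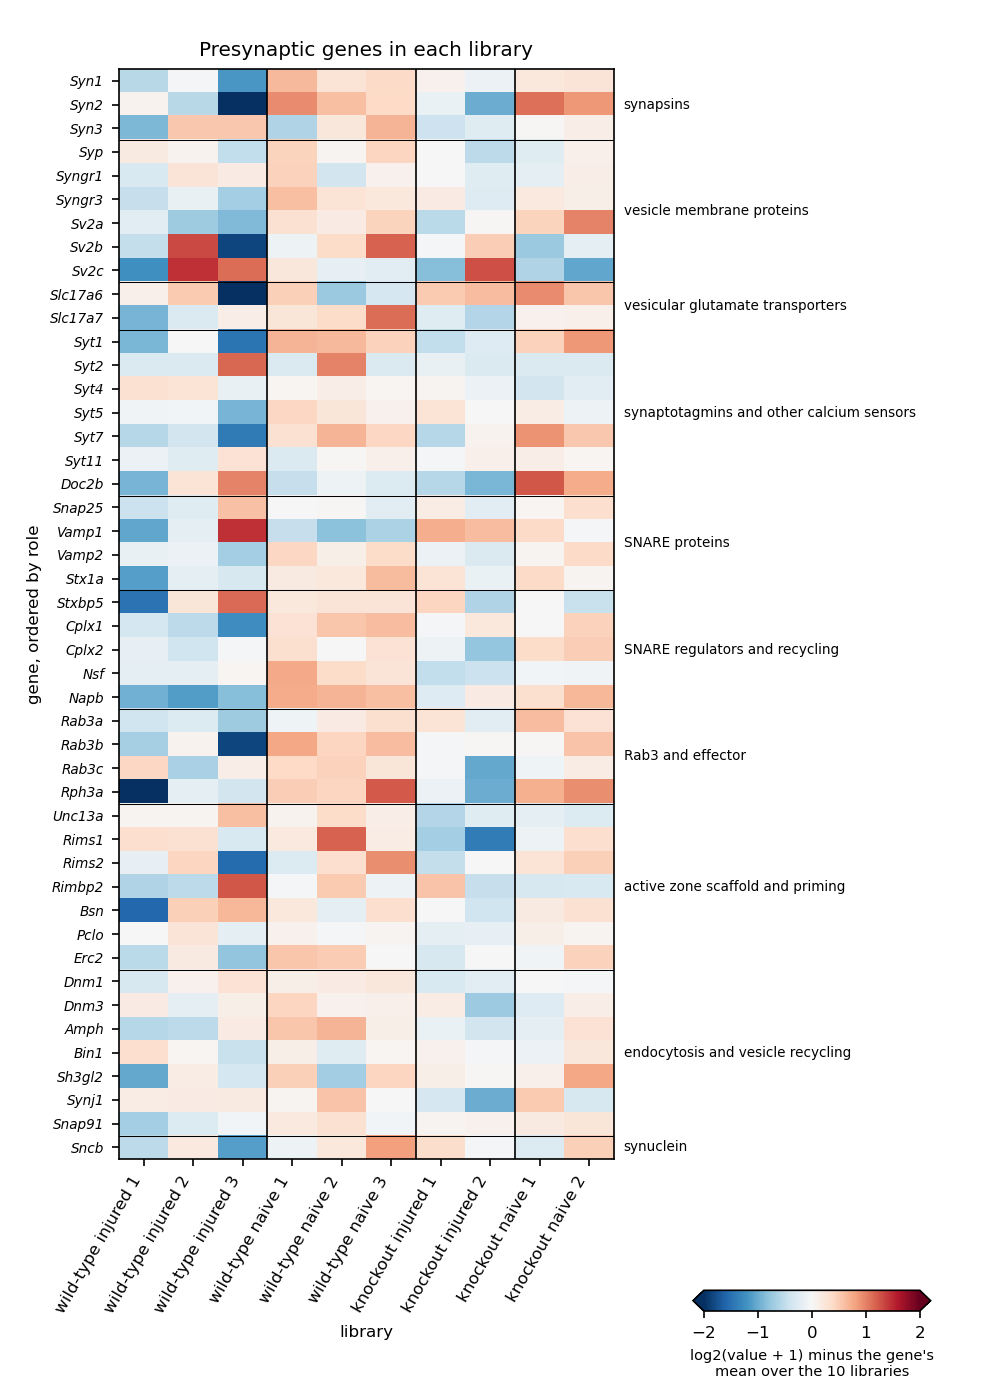
Level of each of the 46 members in each of the 10 libraries, as log2(value + 1) minus the gene's mean over the libraries, with rows ordered by role and columns by group. Blue cells gather in the injured libraries, in wild type most of all for Napb, Rph3a, Syn2, Rab3b and Syt1, with fold changes of -1.65 to -1.39, and wild-type injured replicate 3 holds the lowest value of 18 members.

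**Figure D3:**
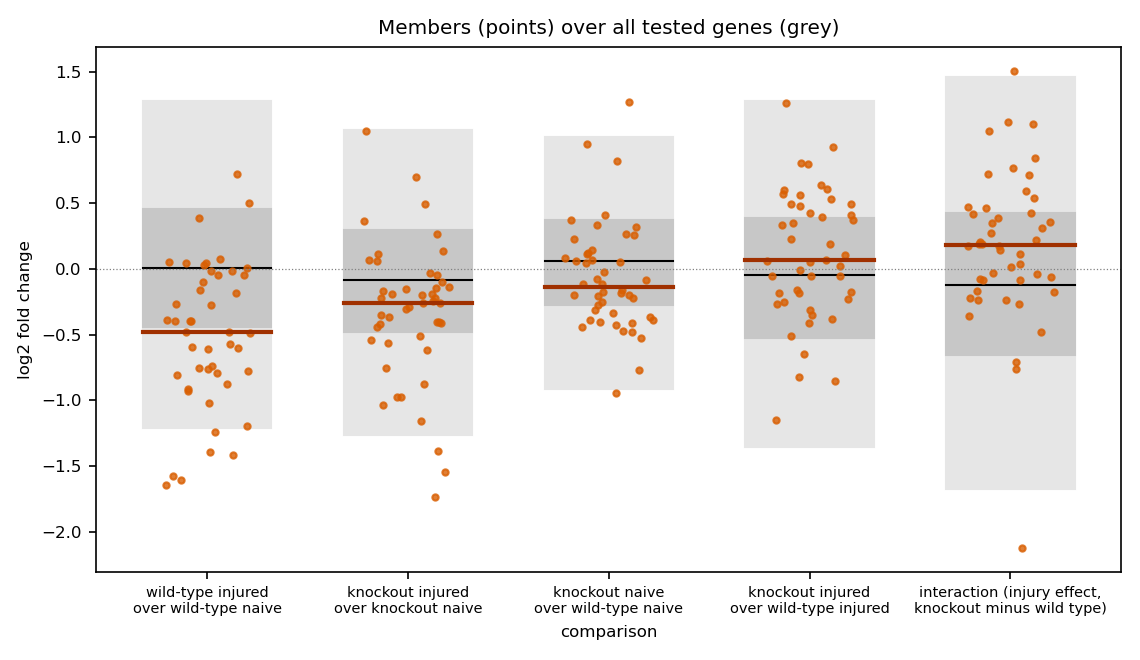
Log2 fold changes of the 46 members (points, with a bar at their median) in 5 comparisons, over the middle 50% (dark grey) and 90% (light grey) of all tested genes with their median (black line). The medians of the members are -0.48 and -0.26 for injury in wild type and knockout, against 0.01 and -0.09 for all genes, and the points lie on both sides of 0 in the genotype comparisons.

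Among the proteins that take SNARE complexes apart and steer their assembly, Napb was the member that passed. Napb (ENSMUSG00000027438, chromosome 2, 148693985 to 148732467, minus strand, mm10) encodes beta-SNAP, the brain form of the adaptor that recruits NSF to used SNARE complexes. Its value was 17.2, 15.4 and 18.6 in the injured and 58.1, 55.98 and 52.5 in the naive wild-type libraries. It was 28.6 and 38.8 in the injured and 43.5 and 55.3 in the naive knockout libraries. In wild type the injured libraries lay close together and far below the naive ones, and in knockout the injured libraries lay below the naive ones by less. The log2 fold change was -1.65 ± 0.25 in wild type (limma adjusted p = 0.00788), -0.54 ± 0.30 in knockout (limma adjusted p = 0.933) and -1.10 ± 0.19 averaged over both (limma adjusted p = 0.0235). In that average Napb was again the single member called, 1 of 46 beside 0.280% of all genes called lower. At an unadjusted p below 0.05 there were 17 lower members in the average, beside 6.53% of all genes, and 41 of 46 fold changes were below 0, beside 54.0%. In the wild-type comparison Napb no longer passed without naive replicate 1 or 2 (limma adjusted p = 0.0578 and 0.0521) or when only the 6 wild-type libraries were fitted (limma adjusted p = 0.0574). In the averaged comparison Napb passed in the fits without a wild-type injured library. It did not pass in those without a wild-type naive library (limma adjusted p up to 0.0876). Without knockout naive replicate 2, which leaves 1 library in that group, its averaged fold change was -1.01.

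Cplx1 encodes complexin-1, which clamps and promotes the fusion of primed vesicles (ENSMUSG00000033615, chromosome 5, 108518554 to 108550024, minus strand, mm10). It had 54.05, 47.5 and 28.6 in the injured and 84.4, 102 and 106 in the naive wild-type libraries. It had 68.1 and 79.7 in the injured and 69.4 and 95.8 in the naive knockout libraries. The wild-type groups did not overlap, whereas the knockout groups did. Its log2 fold change was -1.19 ± 0.26 in wild type (limma adjusted p = 0.0514) and -0.14 ± 0.32 in knockout (limma adjusted p = 1), and in wild type it passed in 7 of 22 other settings, with adjusted p from 0.0392 to 0.199. The related Cplx2 averaged 13.2 ± 1.85 in wild-type injured and 17.6 ± 2.14 in wild-type naive libraries (SD, n = 3 each), with a fold change of -0.40 ± 0.33 in wild type and -0.88 ± 0.41 in knockout (limma adjusted p = 0.645 and 0.869). Nsf, the ATPase that Napb recruits, had 43.3, 42.99 and 50.3 in the injured and 83.9, 63.6 and 59.2 in the naive wild-type libraries, which did not overlap. It had 34.5 and 36.1 in the injured and 47.4 and 46.6 in the naive knockout libraries, again without overlap, and its fold changes of -0.57 ± 0.22 and -0.40 ± 0.27 did not pass (limma adjusted p = 0.277 and 0.958). Stxbp5, or tomosyn, which binds plasma membrane SNAREs and holds back fusion, was the lowest of this role with 1.94, 8.697 and 17.1 in the injured and 8.53, 8.797 and 8.79 in the naive wild-type libraries, where the injured values ran far to both sides of the naive ones. It had 9.99 and 4.39 in the injured and 7.15 and 5.01 in the naive knockout libraries, and its fold changes were -0.28 ± 0.62 in wild type and 0.14 ± 0.75 in knockout.

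The motif through which Cpeb1 acts was looked for in the longest annotated 3' untranslated region of each gene (GENCODE M21, mm10), as TTTTAT or TTTTAAT on the transcript strand, where overlapping matches count separately. It was present in 31 of 46 members (67.4%) and in 63.0% of 13116 tested protein-coding genes, whose regions were shorter (median 1210 nt, against 2448 nt in members). A motif at most 100 nt before a poly(A) hexamer (AATAAA or ATTAAA) in the last 50 nt of the region was present in 4 members, Napb, Rab3c, Stx1a and Sv2b (8.70%), and in 15.7% of all genes. Shown are the motif nearest to that end in Napb, in Stx1a and in Rab3c and the single motif of Cplx1, with 10 bases on either side and the motif in capitals.
Napb, chr2:148694014-148694039, minus strand: agaacgtttgTTTTATgtgaacctgt
Stx1a, chr5:135051061-135051086, plus strand: tttgtgagatTTTTATgtagaataaa
Rab3c, chr13:110054223-110054248, minus strand: gtttatcttgTTTTATttttttgaag
Cplx1, chr5:108519007-108519032, minus strand: atttggtaagTTTTATcttgacagaa

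These motifs lie 22 nt (Napb), 10 nt (Stx1a), 21 nt (Rab3c) and 445 nt (Cplx1) before the last hexamer. Napb has 6 motifs in 3411 nt, Syt1 6 in 2890 nt and Stxbp5 the most, 20 in 5366 nt, while Syn1, Rab3a, Rab3b, Snap25, Nsf, Syp and Amph are among the 15 with none. For injury in wild type the median fold change was -0.40 in the 31 members with a motif and -0.59 in the 15 without, and for knockout over wild type in injured neurites it was 0.06 in each set. Over all tested protein-coding genes, the median of knockout over wild type in injured neurites was -0.07 in the 8260 with a motif and 0 in the 4856 without.

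**Figure D4:**
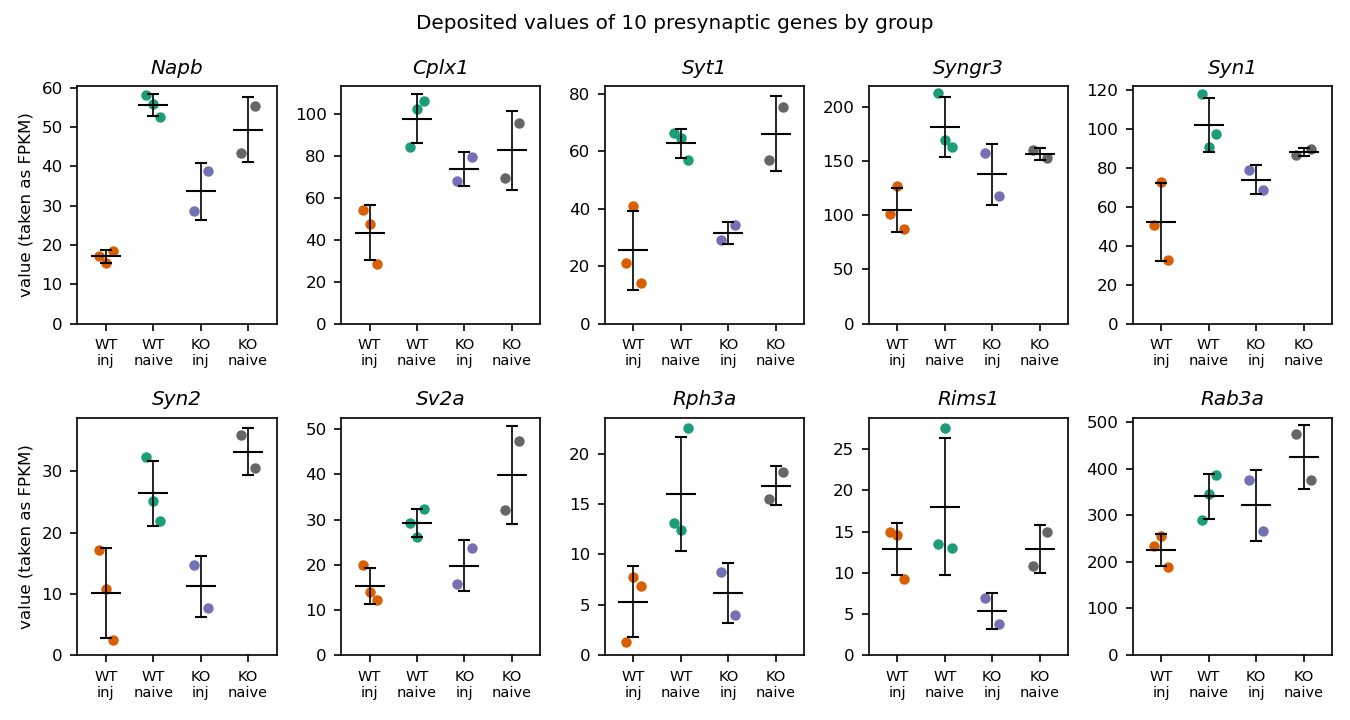
Deposited values of 10 members in each library by group (WT, wild type, KO, knockout, inj, injured), with the mean and SD as bars (n = 3, 3, 2 and 2). Napb lies at 15.4 to 18.6 in wild-type injured and at 52.5 to 58.1 in wild-type naive libraries, and at 28.6 and 38.8 in knockout injured and 43.5 and 55.3 in knockout naive libraries.

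Synaptotagmins and related calcium sensors did not move as a block, with 3 of 7 fold changes below 0 in wild type and 4 of 7 in knockout. Syt1, the sensor of fast synchronous release, had 21.1, 40.9 and 14.3 in the injured and 66.4, 64.6 and 57.01 in the naive wild-type libraries. It had 28.9 and 34.1 in the injured and 56.8 and 75.4 in the naive knockout libraries. Injured and naive libraries did not overlap in either genotype, and wild-type injured replicate 2 lay nearest to the naive range. The log2 fold change was -1.39 ± 0.33 in wild type, -1.04 ± 0.40 in knockout and -1.21 ± 0.26 averaged over both (limma adjusted p = 0.0732, 0.795 and 0.0652), and without wild-type injured replicate 2 it was -1.79 in wild type and passed (limma adjusted p = 0.0104). Of the summed value of the 6 synaptotagmins Syt1 held 6.04% ± 2.997 in wild-type injured and 12.9% ± 0.990 in wild-type naive libraries (SD, n = 3 each), and 7.12% ± 1.04 in knockout injured and 14.5% ± 2.98 in knockout naive libraries (SD, n = 2 each). Syt7, a slower sensor of high calcium affinity, averaged 0.776 ± 0.605 in wild-type injured and 3.05 ± 0.558 in wild-type naive libraries (SD, n = 3 each) and had fold changes of -1.24 ± 0.53 in wild type and -0.97 ± 0.65 in knockout (limma adjusted p = 0.324 and 0.957). Syt5 averaged 94.5 ± 29.5 in wild-type injured and 139 ± 15.9 in wild-type naive libraries (SD, n = 3 each), with fold changes of -0.60 ± 0.24 in wild type and 0.11 ± 0.30 in knockout. 

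The other 4 members of this role are Syt11, Syt4, Doc2b and Syt2. Syt11, a synaptotagmin that does not bind calcium and the highest of this role, had 149.7, 137 and 199 in the injured and 133, 164 and 174 in the naive wild-type libraries. It had 160.1 and 174 in the injured and 178 and 167 in the naive knockout libraries. Its groups overlapped in both genotypes, with fold changes of 0.03 ± 0.19 and -0.05 ± 0.23, and short stretches of its transcript match other transcripts. Syt4, a synaptotagmin of dense-core vesicles, had 145, 142 and 105 in the injured and 120.4, 129 and 120.3 in the naive wild-type libraries. It had 121 and 109 in the injured and 90.9 and 100.2 in the naive knockout libraries, so that the injured knockout libraries lay above the naive ones, while the fold changes of 0.07 ± 0.19 and 0.26 ± 0.23 did not pass (limma adjusted p = 0.904 and 0.977). Doc2b, a soluble C2-domain sensor linked to spontaneous and asynchronous release, was low, with 0, 1.28 and 2.77 in the injured and 0.381, 0.775 and 0.571 in the naive wild-type libraries. It had 0.279 and 0.009 in the injured and 3.505 and 2.17 in the naive knockout libraries. The knockout groups did not overlap and the wild-type groups did, and its fold changes were -1.73 ± 0.68 in knockout and 0.39 ± 0.56 in wild type (limma adjusted p = 0.795 and 0.804). Syt2, the fast sensor of hindbrain and some inhibitory synapses, had 0, 0 and 1.701 in the injured and 0, 1.42 and 0 in the naive wild-type libraries, and 0.099 and 0 in the injured and 0 and 0 in the naive knockout libraries.

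The synapsins, which tether vesicles in the reserve pool, all had fold changes below 0 in both genotypes. Syn1 (ENSMUSG00000037217, chromosome X, 20860511 to 20921004, minus strand, mm10) had 50.5, 72.7 and 32.8 in the injured and 118, 90.8 and 97.7 in the naive wild-type libraries. It had 79.1 and 68.6 in the injured and 86.9 and 89.8 in the naive knockout libraries. Injured libraries lay below naive ones in both genotypes, by less in knockout, with fold changes of -1.02 ± 0.27 in wild type and -0.26 ± 0.32 in knockout (limma adjusted p = 0.103 and 0.984). Syn2 had 17.1, 10.8 and 2.48 in the injured and 32.3, 25.1 and 21.9 in the naive wild-type libraries. It had 14.8 and 7.68 in the injured and 35.9 and 30.5 in the naive knockout libraries. Again no injured value reached a naive one, and the size was alike, -1.58 ± 0.52 in wild type, -1.54 ± 0.64 in knockout and -1.56 ± 0.41 averaged (limma adjusted p = 0.208, 0.816 and 0.139). Syn3, the synapsin of early neuronal development and the lowest of the 3, had 2.37, 8.06 and 8.06 in the injured and 3.12, 6.30 and 9.07 in the naive wild-type libraries, which overlapped. It had 3.69 and 4.31 in the injured and 5.36 and 5.87 in the naive knockout libraries, and its fold changes were -0.04 ± 0.56 and -0.40 ± 0.68. Of the summed synapsin value Syn2 held 12.3% ± 3.96 in knockout injured and 26.1% ± 2.74 in knockout naive libraries (SD, n = 2 each), and 14.0% ± 9.56 in wild-type injured and 19.5% ± 2.21 in wild-type naive libraries (SD, n = 3 each).

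Promoters, from 250 bases before to 50 after the annotated start, were given by RefSeq (GRCm38.p6) for 36 of the 46 members. Short motifs were searched on both strands. The full cAMP response element TGACGTCA was in 2 of 36, Syn1 and Sh3gl2 (5.56%, beside 1.88% of 27025 promoters), and its shorter form TGACG, which the full one contains, in 9 (25%, beside 21.02%). The AP-1 motif TGANTCA was in Erc2 and Rph3a (5.56%, beside 7.93%), the TATA motif TATAAA in Rab3b and Sv2b (5.56%, beside 14.2%), the Egr motif GCGTGGGCG in Unc13a (2.78%, beside 0.625%) and the GC box GGGCGG in 26 (72.2%, beside 35.9%). The RE1 element, the site of a repressor of neuronal genes, was searched in a single strict form. Only 3 of 27025 promoters hold that form (0.0111%), and 0 of 36 members do. With a form this rare, the search cannot show whether these promoters, that of Syn1 included, hold the element. Looser forms were not searched. The median GC content was 62.5% in members and 52.7% in all promoters. Syn1 and Cplx1, which stood below naive levels in wild-type injured libraries, are shown with every TGACG or its reverse complement in capitals.
Syn1, chrX:20920869-20921168, minus strand: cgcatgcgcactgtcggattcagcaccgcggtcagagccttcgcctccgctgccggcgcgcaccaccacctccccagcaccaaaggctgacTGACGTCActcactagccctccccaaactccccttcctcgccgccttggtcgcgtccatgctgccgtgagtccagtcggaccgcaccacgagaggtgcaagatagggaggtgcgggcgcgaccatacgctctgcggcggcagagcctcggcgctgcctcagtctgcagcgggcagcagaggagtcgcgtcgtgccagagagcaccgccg
Cplx1, chr5:108549978-108550277, minus strand: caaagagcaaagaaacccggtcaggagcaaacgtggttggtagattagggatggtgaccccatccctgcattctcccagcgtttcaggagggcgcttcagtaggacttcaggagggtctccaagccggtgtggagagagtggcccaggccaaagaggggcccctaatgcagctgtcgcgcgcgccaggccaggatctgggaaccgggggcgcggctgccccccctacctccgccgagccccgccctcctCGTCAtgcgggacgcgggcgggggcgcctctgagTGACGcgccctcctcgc

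A match of this kind is a description of the letters and says nothing of binding in these cells. The Cplx1 stretch holds a TGACG and a reversed copy, and the Syn1 stretch a single palindromic full element. Napb, also matched, holds none of the motifs searched.

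Of the vesicle membrane proteins 5 of 6 had fold changes below 0 in wild type and 4 of 6 in knockout. Syngr3, a synaptogyrin and the highest of this role, had 101, 127 and 86.9 in the injured and 213, 169 and 163 in the naive wild-type libraries. It had 158 and 118 in the injured and 160.3 and 153 in the naive knockout libraries. Wild-type groups did not overlap and knockout groups did, with fold changes of -0.79 ± 0.20 in wild type and -0.20 ± 0.25 in knockout (limma adjusted p = 0.0973 and 0.984). Sv2a, the vesicle glycoprotein bound by the antiepileptic drug levetiracetam, had 19.8, 13.9 and 12.2 in the injured and 29.3, 26.2 and 32.2 in the naive wild-type libraries. It had 15.8 and 23.8 in the injured and 32.1 and 47.5 in the naive knockout libraries. Injured libraries lay below naive ones in both genotypes, and the fold changes were -0.91 ± 0.31 in wild type, -0.97 ± 0.38 in knockout and -0.94 ± 0.25 averaged (limma adjusted p = 0.2201, 0.795 and 0.129). Synaptophysin, Syp, a vesicle protein that binds Vamp2, had 119.8, 111 and 74.9 in the injured and 144, 109.8 and 142 in the naive wild-type libraries. It had 105 and 73.4 in the injured and 88.6 and 113 in the naive knockout libraries. Its groups overlapped in both genotypes, and the fold changes were -0.39 ± 0.24 and -0.19 ± 0.29. Sv2c, the lowest of this role, had 0.07, 5.85 and 4.41 in the injured and 1.904, 1.23 and 1.15 in the naive wild-type libraries, which overlapped. It had 0.379 and 5.12 in the injured and 0.641 and 0.207 in the naive knockout libraries, with 1 high library among the injured. Syngr1 averaged 48.5 ± 9.805 in wild-type injured and 49.6 ± 14.03 in wild-type naive libraries (SD, n = 3 each), and Sv2b was listed at 0 in wild-type injured replicate 3 and ran up to 7.87 elsewhere.

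The SNARE proteins themselves differed from one another. Vamp2, the vesicle SNARE of evoked release and the highest SNARE gene, had 184, 187 and 127 in the injured and 272, 221 and 262 in the naive wild-type libraries. It had 188 and 165 in the injured and 211 and 266 in the naive knockout libraries. Injured libraries lay below naive ones in both genotypes, with fold changes of -0.61 ± 0.19 in wild type and -0.42 ± 0.24 in knockout (limma adjusted p = 0.191 and 0.933). Vamp1, its close relative, had 1.37, 3.25 and 12.4 in the injured and 2.53, 1.75 and 2.14 in the naive wild-type libraries, spread widely after injury. It had 7.03 and 6.495 in the injured and 5.33 and 3.78 in the naive knockout libraries, where the injured values lay above the naive ones, and the fold changes were 0.72 ± 0.63 and 0.50 ± 0.77 (limma adjusted p = 0.663 and 0.991). Stx1a averaged 65.5 ± 20.5 in wild-type injured and 118 ± 21.5 in wild-type naive libraries (SD, n = 3 each), without overlap, and 97.4 ± 19.99 in knockout injured and 108 ± 17.7 in knockout naive libraries (SD, n = 2 each), with overlap. Its fold changes were -0.88 ± 0.26 and -0.15 ± 0.32 (limma adjusted p = 0.1701 and 0.998). Snap25 averaged 209 ± 84.6 in wild-type injured and 193 ± 17.04 in wild-type naive libraries (SD, n = 3 each), with fold changes of 0.05 ± 0.24 and -0.22 ± 0.30. It was highest in wild-type injured replicate 3, where it made up 17.1% of the summed value of the members, against 6.47% to 9.77% in the other libraries.

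All 4 genes of the Rab3 role had fold changes below 0 in both genotypes. Rab3a, which brings vesicles to release sites, had 234, 255 and 188 in the injured and 289, 345 and 386 in the naive wild-type libraries. It had 375 and 267 in the injured and 474 and 376 in the naive knockout libraries. Groups did not overlap in either genotype, by a narrow margin in knockout, and the fold changes were -0.59 ± 0.19 in wild type and -0.41 ± 0.24 in knockout (limma adjusted p = 0.2004 and 0.933). Rph3a, or rabphilin, a Rab3 effector and the lowest of the 4, had 1.32, 7.803 and 6.82 in the injured and 13.1, 12.5 and 22.6 in the naive wild-type libraries. It had 8.26 and 4.03 in the injured and 15.5 and 18.2 in the naive knockout libraries. No injured value reached a naive one, and the fold changes were -1.60 ± 0.55 in wild type, -1.38 ± 0.67 in knockout and -1.49 ± 0.43 averaged (limma adjusted p = 0.221, 0.891 and 0.185). Rab3b averaged 37.2 ± 22.5 in wild-type injured and 88.5 ± 10.5 in wild-type naive libraries (SD, n = 3 each), with fold changes of -1.42 ± 0.38 in wild type and -0.30 ± 0.46 in knockout (limma adjusted p = 0.119 and 0.991). For Rab3c they were -0.39 ± 0.38 and -0.56 ± 0.47.

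Fold changes of the active zone genes were below 0 in 6 of 7 in each genotype, and none passed. Rims1, a RIM scaffold that docks and primes vesicles near calcium channels, had 14.95, 14.5 and 9.22 in the injured and 13.5, 27.6 and 12.96 in the naive wild-type libraries, which overlapped. It had 6.88 and 3.79 in the injured and 10.8 and 14.95 in the naive knockout libraries. In knockout the injured libraries lay below the naive ones, and the fold changes were -1.16 ± 0.52 in knockout and -0.40 ± 0.42 in wild type (limma adjusted p = 0.861 and 0.729). Erc2, an ELKS family scaffold and the highest of this role, had 9.88, 16.8 and 8.17 in the injured and 22.2, 21.6 and 14.8 in the naive wild-type libraries. It had 11.7 and 14.9 in the injured and 14.1 and 20.8 in the naive knockout libraries. Both pairs of groups overlapped, with fold changes of -0.74 ± 0.37 and -0.35 ± 0.46. Rimbp2, a RIM-binding protein and the lowest, had 0.111, 0.175 and 2.98 in the injured and 0.664, 1.43 and 0.581 in the naive wild-type libraries, with 1 injured library above the rest. It had 1.51 and 0.230 in the injured and 0.354 and 0.375 in the naive knockout libraries. The very long Pclo stayed between 4.42 and 6.42 in all libraries, with fold changes of -0.02 ± 0.45 and -0.26 ± 0.55, and the priming factor Unc13a had 0.05 ± 0.38 and -0.19 ± 0.47.

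Genes of membrane retrieval had fold changes below 0 in 6 of 7 in wild type and 7 of 7 in knockout, most of them small. Bin1, amphiphysin-2, the highest of them, had 73.4, 59.997 and 42.6 in the injured and 63.05, 49.2 and 59.9 in the naive wild-type libraries. It had 61.9 and 56.7 in the injured and 53.9 and 67.95 in the naive knockout libraries. Both pairs overlapped, with fold changes of 0.00 ± 0.24 and -0.03 ± 0.30. Dnm3, a dynamin and the lowest of this role, had 13.6, 10.4 and 13.1 in the injured and 16.6, 12.9 and 13.04 in the naive wild-type libraries. It had 13.5 and 6.84 in the injured and 9.85 and 13.3 in the naive knockout libraries. These overlapped as well, with fold changes of -0.18 ± 0.38 and -0.22 ± 0.46. Synj1, a lipid phosphatase needed to shed clathrin coats, had 18.3, 18.6 and 18.8 in the injured and 17.1, 24.9 and 16.54 in the naive wild-type libraries, with the injured values inside the naive range. It had 12.9 and 7.81 in the injured and 23.95 and 12.9 in the naive knockout libraries, with the higher injured value just below the lower naive one, and in knockout the fold change was -0.76 ± 0.43 (limma adjusted p = 0.933). Amph averaged 25.5 ± 8.002 in wild-type injured and 43.4 ± 8.57 in wild-type naive libraries (SD, n = 3 each), with fold changes of -0.76 ± 0.30 and -0.29 ± 0.36 (limma adjusted p = 0.278 and 0.984). The clathrin adaptor Snap91 had -0.49 ± 0.25 and -0.14 ± 0.31, the endophilin Sh3gl2 -0.48 ± 0.38 and -0.37 ± 0.46, and Dnm1 -0.16 ± 0.29 and -0.24 ± 0.36.

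The transporters that fill vesicles with glutamate were among the lowest members. Slc17a6 had 5.91, 8.22 and 0 in the injured and 7.92, 2.85 and 4.09 in the naive wild-type libraries. It had 8.27 and 8.89 in the injured and 11.4 and 8.42 in the naive knockout libraries. Slc17a7 had 0.442, 1.25 and 2.02 in the injured and 2.25, 2.52 and 4.93 in the naive wild-type libraries. The injured values of Slc17a7 lay below the naive ones in wild type, and Slc17a6 was listed at 0 in the library that stands apart. In knockout libraries Slc17a7 had 1.32 and 0.829 after injury and 1.902 and 1.96 in naive neurites, and fold changes were -0.93 ± 0.54 and -0.51 ± 0.66 for Slc17a7 and -0.48 ± 0.74 and -0.17 ± 0.91 for Slc17a6. Sncb, beta-synuclein, a vesicle-associated chaperone, had 15.6, 26.3 and 10.1 in the injured and 21.1, 26.4 and 40.9 in the naive wild-type libraries, which overlapped. It had 29.2 and 22.3 in the injured and 18.6 and 32.1 in the naive knockout libraries, with fold changes of -0.78 ± 0.39 and 0.06 ± 0.48.

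**Figure D5:**
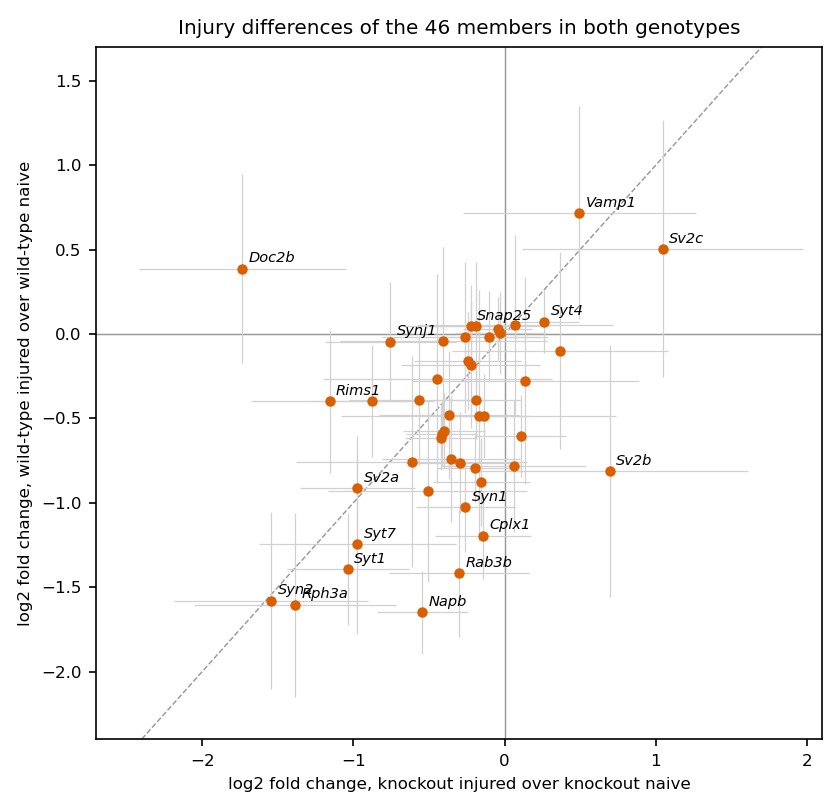
Log2 fold change of injured over naive for the 46 members in knockout (x axis) and in wild type (y axis), with SE bars and the line of equality. Below 0 on both axes lie 32 points, with Napb and Cplx1 below the line, at -1.65 and -1.19 in wild type against -0.54 and -0.14 in knockout.

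The injury comparison was repeated without each library in doubt. Without wild-type injured replicate 3, Napb was again the 1 member called in wild type, 40 of 46 fold changes were below 0 with a median of -0.47, and 15 were lower at an unadjusted p below 0.05. Of all genes 0.210% were then called lower, 49.7% were below 0 and 5.79% were lower at an unadjusted p below 0.05. Without wild-type injured replicate 1, whose Cpeb1 value lay among the knockout libraries, the median was -0.53 and 33 of 46 fold changes were below 0, beside 48.0% of all genes. Napb was then the 1 member called, beside 0.140% of all genes called lower, and 15 were lower at an unadjusted p below 0.05, beside 6.70% of all genes. Without wild-type injured replicate 2, 6 members were called lower, namely Cplx1, Napb, Rab3b, Syn1, Syngr3 and Syt1, while the share of all genes called lower was 0.675%. Without wild-type naive replicate 1 or 2, 0 members were called, beside 0.0446% and 0.0573% of all genes. In knockout the median was -0.36 without naive replicate 1, whose Cpeb1 value lay in the wild-type range, and -0.24 without naive replicate 2. It was -0.37 without injured replicate 1 and -0.23 without injured replicate 2. Fold changes below 0 numbered 35 and 36 of 46 without naive replicate 1 and 2, beside 52.9% and 56.0% of all genes. They numbered 40 and 32 without injured replicate 1 and 2, beside 53.7% and 55.5%. These fits leave 1 library in a group, so members are not counted by p-value here.

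Between the genotypes no presynaptic gene passed the test in naive neurites (0 of 46, beside 0.146% of all genes) or in injured neurites (0 of 46, beside 0.261%). In naive neurites the median log2 fold change of knockout over wild type was -0.14, against 0.06 for all genes, and 0 members had an unadjusted p below 0.05, beside 2.70% of all genes higher and 1.06% lower. Without knockout naive replicate 1 that median was 0.01, against 0.03 for all genes. In injured neurites the median was 0.06, against -0.05 for all genes, and it ranged from -0.03 to 0.39 over other settings, on both sides of 0. At an unadjusted p below 0.05, 3 members were higher, Napb, Cplx1 and Rab3a, and 1 lower, Rims1. These are 6.52% and 2.17% of the members, beside 4.50% and 5.95% of all genes. Without wild-type injured replicate 2 the counts were 11 higher and 0 lower, beside 6.07% and 7.45% of all genes. The fits without knockout injured replicate 1 or 2 leave 1 library in that group, so members are not counted by p-value there. Their medians were -0.03 and 0.16, against -0.04 for all genes in each. Averaged over both conditions 0 of 46 were called, beside 0.204% of all genes. The direction rests on the labels, since the Cpeb1 values of 2 libraries did not separate by genotype.

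In naive neurites the smallest p-values belonged to Nsf (-0.53 ± 0.25), Doc2b (1.27 ± 0.62), Syt4 (-0.37 ± 0.21), Rab3a (0.32 ± 0.22) and Syp (-0.39 ± 0.26), each a log2 fold change of knockout over wild type with limma adjusted p = 1. The knockout libraries lay apart from all wild-type libraries for Nsf, Doc2b and Syt4. In injured neurites they belonged to Napb (0.93 ± 0.28, limma adjusted p = 0.268), Cplx1 (0.80 ± 0.29, 0.354), Rims1 (-1.15 ± 0.47, 0.420), Rab3a (0.50 ± 0.22, 0.445) and Synj1 (-0.82 ± 0.40, 0.494). All 5 had injured libraries of the knockout outside the range of the injured wild-type libraries. Counted over all members, knockout libraries lay above all wild-type libraries for 5 members in naive (10.9%, beside 14.1% of all genes) and 7 in injured neurites (15.2%, beside 9.72%), and below for 12 in naive (26.1%, beside 8.51%) and 4 in injured neurites (8.70%, beside 12.2%).

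Whether injury acted differently in the genotypes was tested as the interaction, the fold change in knockout minus that in wild type. Of all 15712 genes 0 passed this limma test (0.00%), and at an unadjusted p below 0.05 there were 304 positive and 675 negative ones. Among members 2 had a positive and 1 a negative value at that level, 4.35% and 2.17%, beside 1.93% and 4.30% of all genes. Without wild-type injured replicate 2 the counts were 7 positive and 1 negative, beside 3.05% and 6.27% of all genes. Without any other single wild-type library they were 1 or 2 positive and 0 or 1 negative. Of all genes 1.48% to 2.58% were then positive and 3.25% to 5.38% negative at that level. Napb had 1.10 ± 0.39 and Cplx1 1.05 ± 0.41 (limma adjusted p = 0.791 for both), so that their smaller injury differences in knockout were not shown to differ from those in wild type. Doc2b, with -2.12 ± 0.88 (limma adjusted p = 0.791), was the negative one. The median interaction of the members was 0.18, against -0.13 for all genes. It was 0.02 without knockout injured replicate 1 and 0.11 without knockout naive replicate 1, fits that leave 1 library in a group.

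Beyond the members, 72 of 76 further presynaptic genes on a second list, also chosen with earlier results of these data known, met the same minimum. They leaned the same way, with 54 of 72 fold changes below 0 in wild type (median -0.44), beside 49.0% of all genes, and 53 of 72 in knockout (median -0.30), beside 56.1%. In wild type 1 of 72 was called lower, beside 0.248% of all genes, and in knockout 0, beside 0.0318%. The one in wild type was Apba2, an adaptor that binds Munc18, with 36.9, 42.6 and 38.03 in injured and 68.6, 81.4 and 92.7 in naive libraries (-1.02 ± 0.21, limma adjusted p = 0.0435). Close to the threshold were Syt6 (-2.58 ± 0.56), Synpr, or synaptoporin (-3.01 ± 0.66), and the clathrin light chain Cltb (-0.77 ± 0.17), with limma adjusted p = 0.05198, 0.0553 and 0.0592. Syt6 was near 0 after injury, with 0.1, 0 and 0 in the injured and 10.5, 3.69 and 3.32 in the naive wild-type libraries. Its fold change ran from -5.36 to -1.05 over other settings. Averaged over the genotypes 2 of 72 were called lower, beside 0.280% of all genes. Pacsin1, or syndapin, which bends membrane in endocytosis, had 15.9, 21.7 and 17.6 in the injured and 42.7, 42.5 and 39.98 in the naive wild-type libraries. It had 14.1 and 13.7 in the injured and 43.95 and 37.4 in the naive knockout libraries, and its averaged fold change was -1.32 ± 0.21 (limma adjusted p = 0.0106). Synpr had 8.33, 3.03 and 0 in the injured and 26.8, 25.9 and 25.4 in the naive wild-type libraries. It had 1.77 and 4.404 in the injured and 33.8 and 53.02 in the naive knockout libraries, and its averaged fold change was -3.25 ± 0.52 (limma adjusted p = 0.01304). Of the 10 fits that leave out 1 library, Apba2 passed in 1 in wild type, and averaged over the genotypes Pacsin1 passed in 7 and Synpr in 4. Slc32a1, the vesicle transporter of GABA, stands both on this list and among the interneuron markers given above.

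In knockout alone the smallest p-values of these genes were those of Pacsin1 (-1.48 ± 0.32), Synpr (-3.49 ± 0.81), Nrxn3 (-2.09 ± 0.49), a presynaptic adhesion protein, and Cadps (-1.70 ± 0.57), a priming factor of dense-core vesicles, with limma adjusted p = 0.252, 0.331, 0.348 and 0.708. Between the genotypes 0 of 72 were called in naive neurites, beside 0.146% of all genes, or in injured neurites, beside 0.261%. The smallest p-values in injured neurites were those of Ppfia1 (-1.999 ± 0.51), Syt6 (2.39 ± 0.63), Cltb (0.69 ± 0.19) and Vamp3 (-0.98 ± 0.34), with limma adjusted p from 0.182 to 0.336. For Syt6, near 0 in wild-type injured libraries, this fold change ran from 0.91 to 5.15 over other settings. In naive neurites they were those of Snph (-0.79 ± 0.35), Ap2s1 (0.33 ± 0.20), Syt9 (-0.85 ± 0.57) and Ap2b1 (-0.47 ± 0.33), each with limma adjusted p = 1.

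No member had a near-identical copy among the tested transcripts. Since the libraries carry no strand, reads of overlapping genes cannot be told apart. A share of 16.8% of the exon bases of Syp lies in Gm14703, 14.5% of those of Syt4 in Gm26658 and 14.1% of those of Syn3 in Timp3, and for other members the share is at most 6.22%. Napb, Cplx1 and Syt1 share no exon bases with another tested gene.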

How the data were processed

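Neurite RNA of 10 libraries was sequenced with the Smart-seq2 protocol, which primes on poly(A) tails and keeps no strand (1 ng RNA, 14 and 11 cycles of amplification, per the labels' protocols). STAR 2.4.2a, RSEM 1.2.21 and mm10 are named in the submitters' processing notes. The authors deposited 1 table of values for 45195 Ensembl gene IDs, whose unit is not stated. From the values they are taken as FPKM multiplied by a scaling factor per library: at least 99.9889% of the deposited values lie within 0.001 of a whole multiple of 0.01 times that factor. Depth and counts are therefore unknown, so no count test was used and no counting interval can be given, and since values are shares of a library's RNA, a change in a few abundant RNAs moves all others. Symbols came from GENCODE M21, which holds 44548 of the IDs.

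The 15712 genes that reached 1 in 2 or more libraries were tested on log2(value + 1) with limma 3.58.1 in R 4.3.3, with 4 group means, a mean-variance trend and Benjamini-Hochberg adjustment over all tested genes at 0.05. The pseudocount of 1 understates fold changes of low genes. Fold changes are injured over naive or knockout over wild type, ± SE. Fits were tested on simulated data. The 46 members, the 76 other presynaptic genes and the marker lists were chosen with earlier results of these data known. Members that passed, the 5 with the smallest p in each injury and genotype comparison, the 2 with the smallest in the interaction and the highest and lowest of each role are given by library, other members by group means and fold changes. Of the other presynaptic genes those that passed and the 4 with the smallest p in each comparison are named. Alternatives were another pseudocount, filter, scaling, variance model or set of libraries, a replicate block, and leaving out each library. Scaling by the library total divided by its factor (total over factor) and centring on pan-neuronal genes were added after seeing the data. Replicate numbers are shared between groups in the labels, but same-numbered libraries did not deviate together (correlations of -0.048 to 0.041), so samples were not paired. Python 3.11.15, pandas 2.3.3 and matplotlib 3.10.9 were used, with blastn 2.17.0 for copies (stretches of at least 150 nt at 95% identity).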

Additional observations from a re-analysis of the deposited data

How the results depend on the processing

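Over 22 other settings in each pairwise comparison (21 in the averaged ones and the interaction), 951 of the values for single named genes kept their direction and their side of the threshold, 33 passed only under the other setting, 39 no longer passed, and 0 turned round. Doc2b did not reach the minimum value of 5 and has no value there. Members called for injury in wild type numbered 1 in the fit reported. They numbered 2 (Cplx1 and Napb) with a pseudocount of 5, a minimum value of 5, quantile normalization, median-ratio scaling or total over factor. They numbered 3 with the same total in each library and 0 when only wild-type libraries were fitted. When leaving out 1 library they numbered 0 to 6, beside 0.0446% to 0.675% of all genes called lower. Averaged over genotypes they numbered 2 with a minimum of 5, 0 without the variance trend or centred on pan-neuronal genes, and 0 to 2 when leaving out 1 library. With the replicate block they numbered 2 in wild type (Napb and Syt1) and 2 averaged, although the numbers were not shown to pair the samples. Other presynaptic genes called for injury in wild type, 1 as reported, numbered 2 with a pseudocount of 0.1 or 5. They numbered 4 with a minimum of 5, quantile normalization or median-ratio scaling, 5 with total over factor and 6 with the same total. They numbered 0 with no filter, with only wild-type libraries or centred, and 0 to 2 when leaving out 1 library. In knockout 1 was called with no filter, and 0 to 1 when leaving out 1 library. Averaged, 2 as reported, they numbered 1 with a pseudocount of 0.1, no filter, no trend or centred, and 0 to 3 when leaving out 1 library. Except where a share stands beside them, these counts are given without the share of all genes called under the same setting. They are therefore not read as results about the listed genes.

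The median fold change of the members for injury in wild type was -0.32 with a pseudocount of 5, -0.72 with the same total (all genes -0.21), -0.25 centred (all genes 0.24), and -0.56 to -0.41 when leaving out 1 library. In knockout it was -0.021 with the same total (all genes 0.097), -0.037 centred (all genes 0.14), and -0.37 to -0.23 when leaving out 1 library. Averaged, it was -0.30 with a pseudocount of 5, -0.19 centred, and -0.49 to -0.33 when leaving out 1 library. For genotype in naive neurites it was -0.26 with quantile normalization, -0.34 with the same total, and -0.17 to 0.0083 when leaving out 1 library. In injured neurites it was 0.39 with the same total (all genes 0.20), and -0.031 to 0.23 when leaving out 1 library, and averaged over both conditions -0.01 to 0.12. For the interaction it was 0.36 with quantile normalization, 0.35 with median-ratio scaling or total over factor, 0.69 with the same total, and 0.019 to 0.27 when leaving out 1 library. The cause of these differences was not tested. Where a knockout library is left out, the lone library is assumed to vary like the other groups. With 2 or 3 libraries a group, no known depth and values near 0 for 10 members, differences that did not pass were not shown to be absent.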
